A study of Homo sapiens with 12 samples.

Results

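The BMP target and inhibitor genes BMP4, ID1, ID2, ID3, ID4, SMAD6, SMAD9, BAMBI, MSX1 and MSX2 were read in bulk RNA sequencing of the human embryonic stem cell line UCLA1. The 10 genes were taken by their symbols as genes known to make, answer or restrain the BMP signal, and they are 10 of the 36762 gene symbols in each deposited count table. All 10 were found in both tables, and each matched 1 gene of the GENCODE release 29 annotation (GRCh38). The 4 groups were iMeLC (incipient mesoderm-like cells, a short-lived stage between stem cells and primordial germ cell-like cells) carrying a TET1 catalytic domain knockout (CDKO), iMeLC of control lines (CTRL), CDKO hESC (the stem cells themselves) and CTRL hESC. Each group held 3 libraries, 12 in all, and every library is labelled UCLA1. TET1 is an enzyme that oxidises methylated cytosine in DNA, and the series title asks about its catalytic activity in human germ cell fate choice. The labels do not say how the domain was deleted or how each line was derived.

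BMP ligands bind paired kinase receptors, which phosphorylate SMAD1, SMAD5 and SMAD9. These join SMAD4 and switch on target genes, of which the ID genes are the most widely used readout. ID proteins lack a DNA-binding region and hold back E proteins such as TCF3 by pairing with them. Several targets feed back on the pathway: SMAD6 blocks the signal inside the cell and BAMBI, a receptor without a kinase, blocks it at the membrane. BMP4 is the ligand commonly used to induce primordial germ cell-like cells from iMeLC.

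The promoters of the ID genes and BAMBI are shown because these genes share a role as BMP readouts but moved in different directions between the stages. Each window runs from 250 bases before to 50 bases after the gene's start in RefSeq (build GRCh38.p14), and all 10 genes had an entry. The windows are chr20:31605039-31605338 (plus strand) for ID1, chr2:8681806-8682105 (plus) for ID2, chr1:23559452-23559751 (minus) for ID3, chr6:19837120-19837419 (plus) for ID4 and chr10:28677271-28677570 (plus) for BAMBI. Capitals mark GGCGCC, the GC-rich element bound by BMP-activated SMADs, and CAGAC on either strand (GTCTG), the shorter SMAD element.
ID1: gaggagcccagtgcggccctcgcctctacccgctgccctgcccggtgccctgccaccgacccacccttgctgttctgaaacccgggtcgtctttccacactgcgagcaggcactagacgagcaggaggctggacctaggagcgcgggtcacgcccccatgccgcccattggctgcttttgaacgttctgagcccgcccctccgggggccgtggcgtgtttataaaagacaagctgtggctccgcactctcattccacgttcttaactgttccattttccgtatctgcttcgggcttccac
ID2: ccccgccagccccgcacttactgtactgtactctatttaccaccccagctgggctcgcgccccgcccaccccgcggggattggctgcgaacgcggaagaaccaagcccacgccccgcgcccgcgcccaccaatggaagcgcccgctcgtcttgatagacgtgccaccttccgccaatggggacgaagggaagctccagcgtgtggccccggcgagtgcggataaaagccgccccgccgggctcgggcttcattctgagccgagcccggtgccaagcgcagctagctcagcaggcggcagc
ID3: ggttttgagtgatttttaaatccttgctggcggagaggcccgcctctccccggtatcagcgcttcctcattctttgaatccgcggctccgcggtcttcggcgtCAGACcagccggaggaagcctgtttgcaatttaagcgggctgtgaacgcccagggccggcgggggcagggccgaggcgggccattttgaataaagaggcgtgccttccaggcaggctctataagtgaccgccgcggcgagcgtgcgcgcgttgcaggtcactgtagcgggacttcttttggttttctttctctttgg
ID4: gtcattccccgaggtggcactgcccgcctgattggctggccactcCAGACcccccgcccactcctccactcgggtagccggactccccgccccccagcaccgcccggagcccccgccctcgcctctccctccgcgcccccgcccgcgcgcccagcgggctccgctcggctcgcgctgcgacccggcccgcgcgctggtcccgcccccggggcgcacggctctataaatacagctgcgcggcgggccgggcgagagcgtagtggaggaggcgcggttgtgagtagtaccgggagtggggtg
BAMBI: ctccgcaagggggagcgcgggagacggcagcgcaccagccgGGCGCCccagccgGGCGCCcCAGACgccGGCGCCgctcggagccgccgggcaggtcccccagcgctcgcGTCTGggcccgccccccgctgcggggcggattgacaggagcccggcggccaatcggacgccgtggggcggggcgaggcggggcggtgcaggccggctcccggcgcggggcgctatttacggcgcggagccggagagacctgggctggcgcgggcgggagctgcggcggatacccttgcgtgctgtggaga
The BAMBI window held 3 GGCGCC matches, at -209, -196 and -181 from the start, and 2 matches of CAGAC or its reverse, at -189 and -140. ID3 held 1 CAGAC at -147 and ID4 held 1 at -205. ID1 and ID2 held neither motif in this window, which says nothing of sites outside it. Among 35097 RefSeq promoter windows of the same length, 19.2% held GGCGCC and 45.2% held CAGAC on either strand. The E-protein motif CANNTG, which overlaps none of these matches, occurred once in the ID2 and once in the ID4 window, and in 68.7% of all windows.

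Library totals ranged from 52121702 to 109479071 counts in iMeLC and from 12517593 to 18855099 counts in hESC. Stage coincided with the count table, with the date the table carries and with this depth, so stage and table effects cannot be told apart. TET1 itself had 268 to 309 CPM (a gene's count per 1000000 counts of the TMM-scaled library) in CDKO iMeLC against 257 to 289 CPM in CTRL iMeLC (exact permutation p = 0.3), and 378 to 448 CPM in CDKO hESC against 325 to 380 CPM in CTRL hESC (exact permutation p = 0.2). Counts over the whole gene do not show whether a domain was deleted. The stage labels were checked against marker lists. All 8 primitive streak genes reached 1 CPM in every group, with summed levels of 1538.5 to 1906 CPM in CDKO iMeLC, 322 to 1275 CPM in CTRL iMeLC, 107 to 661 CPM in CDKO hESC and 46.3 to 137 CPM in CTRL hESC. The 8 pluripotency genes summed to 5068 to 5558 CPM in CDKO iMeLC, 4470 to 5015 CPM in CTRL iMeLC, 10477 to 11094 CPM in CDKO hESC and 9200 to 10057 CPM in CTRL hESC. No listed marker was at 0 throughout a group.

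4 libraries stood apart in these lists. CDKO hESC 3 had a primitive streak sum of 661 CPM and an endoderm sum of 185 CPM, where CDKO hESC 1 and 2 had at most 156 and 22.2 CPM. In CDKO hESC 3, CER1 alone gave 404 of the 661 CPM. TBXT, EOMES and MIXL1 had 6.02, 41.2 and 37.7 CPM there, each also above CDKO hESC 1 and 2. CTRL1106 iMeLC had the lowest primitive streak sum of its stage (322 CPM) and an endoderm sum of 20.1 CPM. CTRL1101 iMeLC had a fibroblast or feeder sum of 936 CPM, against 461 and 465 CPM in CTRL1106 and CTRL1109. COL1A1 (528 CPM) and COL1A2 (244 CPM) gave most of the CTRL1101 sum. CTRL hESC 1 had an amnion and trophectoderm sum of 35.5 CPM, against 8.15 and 13.7 CPM in the other CTRL hESC libraries. The iMeLC columns are named by their line, and the hESC columns carry a replicate number and no line number. The hESC samples are labelled with the same lines, but nothing links a hESC column to its line. In bulk RNA, fewer cells of a type and less RNA per cell cannot be told apart.

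ID1 was the most abundant member per kilobase of annotated exon in all 4 groups and ID3 came second. Levels are compared between genes as CPM per kilobase of annotated exon, scaled within each stage. The exon length joins all annotated transcripts (8563 bases for SMAD6, 2314 for BAMBI), and the order between genes depends on it. By CPM alone, ID3 averaged 50.4 CPM and ID1 47.9 CPM in CDKO iMeLC. ID1 averaged 38.8 ± 6.13 CPM per kilobase in CDKO iMeLC, 40.6 ± 7.38 in CTRL iMeLC, 122 ± 2.53 in CDKO hESC and 162 ± 56.5 in CTRL hESC (SD, n = 3 each). ID3 averaged 28.1 ± 1.25 CPM per kilobase in CDKO iMeLC, 23.5 ± 8.80 in CTRL iMeLC, 41.5 ± 3.52 in CDKO hESC and 46.6 ± 5.10 in CTRL hESC. The libraries of ID1 and ID3 did not overlap on this scale in any group. The lowest member was SMAD9 in iMeLC, at 0.137 ± 0.0165 CPM per kilobase in CDKO and 0.252 ± 0.0928 in CTRL. In hESC it was the homeobox gene MSX1, at 0.123 ± 0.0537 CPM per kilobase in CDKO and 0.252 ± 0.122 in CTRL.

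Between these ends the order was looser. In CDKO iMeLC the order below ID3 was BAMBI (12.1 CPM per kilobase), ID2 (11.1), BMP4 (9.63), ID4 (2.84), MSX2 (2.60), SMAD6 (2.33) and MSX1 (2.24). There the libraries of BAMBI and ID2 overlapped, and so did those of ID4, MSX2, SMAD6 and MSX1. In CTRL iMeLC it was ID2 (13.0 CPM per kilobase), BAMBI (8.03), BMP4 (6.15), ID4 (2.76), SMAD6 (2.16), MSX2 (1.40) and MSX1 (0.912), and every neighbouring pair from ID3 down to SMAD9 overlapped except BMP4 and ID4. In CDKO hESC the order was BMP4 (12.4 CPM per kilobase), ID4 (10.3), BAMBI (9.78), ID2 (5.52), SMAD6 (2.76), MSX2 (1.19) and SMAD9 (0.424), and only ID4 and BAMBI overlapped among neighbours. In CTRL hESC it was ID4 (16.8 CPM per kilobase), BMP4 (10.6), ID2 (10.03), BAMBI (8.65), SMAD6 (2.99), MSX2 (1.03) and SMAD9 (0.631). There ID4, BMP4, ID2 and BAMBI overlapped each with the next, as did MSX2 and SMAD9.

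**Figure D1:**
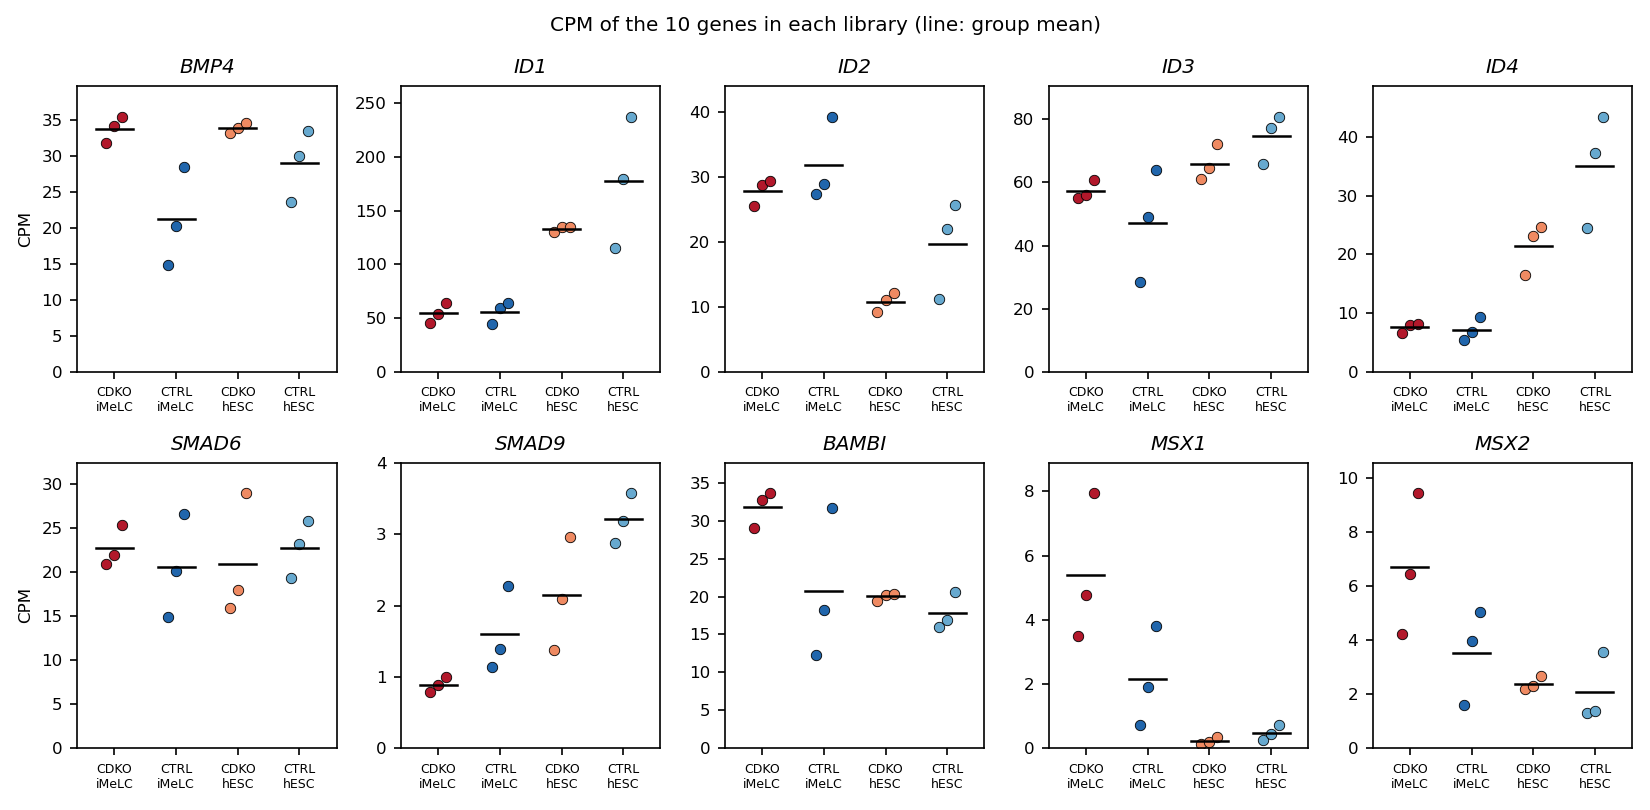
CPM of the 10 genes (vertical axes, linear, from 0, each gene on its own scale, scaled over all 12 libraries) in CDKO iMeLC, CTRL iMeLC, CDKO hESC and CTRL hESC. Each point is a library, drawn in order of value within its group, and the line is the group mean of 3; ID1 and ID4 sit lower in all 6 iMeLC libraries than in any hESC library, and ID2 and MSX1 sit higher in iMeLC within each genotype.

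The ID genes did not move together between the stages: ID1 and ID4 fell in iMeLC and ID2 rose, in CDKO and in CTRL. The fits over both stages took all 12 libraries, and a gene is called where the adjusted p of edgeR's quasi-likelihood test (Benjamini-Hochberg over all genes) is under 0.05. In CDKO, 4 of the 10 members were called higher in iMeLC and 3 lower, where 59.8% of the 20262 genes tested were called in either direction. In CTRL, 2 were called higher and 4 lower, where 49.4% of all genes tested were called. The 7 and 6 members called are thus close to the share called among all genes. The median log2 fold change of the members was 0.06 in CDKO and -0.30 in CTRL, beside -0.079 in CDKO and -0.014 in CTRL for all genes tested. The groups' libraries did not overlap for 8 members in CDKO and 6 in CTRL, where 70.7% and 54.9% of all genes did not.

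ID1 had 45.5, 63.8 and 54.2 CPM in CDKO1102, CDKO1105 and CDKO1312 iMeLC, against 135, 135 and 130 CPM in CDKO hESC 1, 2 and 3 (CPM in the stage comparisons are scaled over the 12 libraries). It had 64.0, 44.3 and 59.1 CPM in CTRL1101, CTRL1106 and CTRL1109 iMeLC, against 179, 115 and 237 CPM in CTRL hESC 1, 2 and 3. All 6 iMeLC libraries were below all 6 hESC libraries, and the CDKO hESC libraries lay closer together than the CTRL hESC libraries. The log2 fold change was -1.29 ± 0.22 in CDKO (SE, edgeR adjusted p = 0.000215) and -1.67 ± 0.22 in CTRL (edgeR adjusted p = 3.1e-05). ID1 lies at chr20:31605283-31606515. The 12 other protein-coding genes of at least 1 CPM that start within 1000000 bases of it summed to 844, 829 and 831 CPM in CDKO1102, CDKO1105 and CDKO1312 iMeLC, against 817, 1086 and 1092 CPM in CTRL1101, CTRL1106 and CTRL1109 iMeLC. In hESC they summed to 680, 698 and 652 CPM in CDKO and 642, 647 and 631 CPM in CTRL libraries 1 to 3 (scaled within the stage). CTRL1106 and CTRL1109 thus stood above the other 4 libraries of the iMeLC stage, and the part of this in the ID1 values was not tested.

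ID4 showed the same direction as ID1 with a larger fold. It had 8.10, 8.02 and 6.57 CPM in CDKO1102, CDKO1105 and CDKO1312 iMeLC, against 24.7, 23.1 and 16.5 CPM in CDKO hESC 1 to 3. CTRL1101, CTRL1106 and CTRL1109 iMeLC had 9.39, 5.36 and 6.86 CPM, against 37.3, 24.5 and 43.4 CPM in CTRL hESC 1 to 3. No iMeLC library reached the lowest hESC library. The log2 fold change of ID4 was -1.50 ± 0.24 in CDKO (edgeR adjusted p = 0.000152) and -2.28 ± 0.24 in CTRL (edgeR adjusted p = 5.04e-06). ID1 and ID4 stayed called and lower in both genotypes under every alternative tried.

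ID2 went the other way. It had 28.7, 29.4 and 25.5 CPM in CDKO1102, CDKO1105 and CDKO1312 iMeLC, against 12.1, 10.99 and 9.17 CPM in CDKO hESC 1 to 3. In CTRL1101, CTRL1106 and CTRL1109 iMeLC it had 39.3, 27.4 and 28.9 CPM, against 22.0, 11.3 and 25.7 CPM in CTRL hESC 1 to 3. The groups did not overlap in either genotype, although the gap in CTRL was narrow. edgeR's log2 fold change was 1.37 ± 0.25 in CDKO (edgeR adjusted p = 0.000374) and 0.70 ± 0.24 in CTRL (edgeR adjusted p = 0.0280). The CTRL call was lost without CTRL1101 (0.47, adjusted p = 0.1298) or CTRL hESC 2 (0.43, adjusted p = 0.0628), with RLE scaling (0.61, adjusted p = 0.0504) and in a fit over the 6 CTRL libraries (0.67, adjusted p = 0.0976). Exons of ID2 overlap those of ID2-AS1 on the opposite strand, and the strand setting of the counting is not given, so reads of the pair cannot be told apart.

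ID3, the second member per kilobase of exon, had 56.0, 60.9 and 55.2 CPM in CDKO1102, CDKO1105 and CDKO1312 iMeLC, against 72.1, 64.7 and 61.2 CPM in CDKO hESC 1 to 3. The groups lay side by side without overlap, but the fold change of -0.20 ± 0.21 was not called (edgeR adjusted p = 0.424; adjusted p = 0.0237 in a fit over the 6 CDKO libraries). In CTRL1101, CTRL1106 and CTRL1109 iMeLC it had 63.9, 28.3 and 48.9 CPM, against 77.2, 65.7 and 80.9 CPM in CTRL hESC 1 to 3. CTRL1106 was the lowest of all 12 libraries. The fall in CTRL was -0.67 ± 0.21 (edgeR adjusted p = 0.0190) and was not called without CTRL hESC 1 (-0.62, adjusted p = 0.0591), without CTRL hESC 3 (-0.57, adjusted p = 0.0826) or in the fit over 6 libraries (-0.69, adjusted p = 0.0631).

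Summed over the 4 genes, the ID level was 92.0 ± 9.23 CPM per kilobase in CDKO iMeLC, 88.9 ± 21.5 in CTRL iMeLC, 159 ± 7.41 in CDKO hESC and 209 ± 61.2 in CTRL hESC (SD, n = 3 each, scaled over 12 libraries). ID1 made up 47.9% of that sum in CDKO iMeLC, 51.4% in CTRL iMeLC, 68.1% in CDKO hESC and 68.0% in CTRL hESC. ID2 made up 13.8% in CDKO iMeLC, 16.5% in CTRL iMeLC, 3.07% in CDKO hESC and 4.18% in CTRL hESC. ID3 made up 34.8% in CDKO iMeLC, 28.7% in CTRL iMeLC, 23.1% in CDKO hESC and 20.7% in CTRL hESC. ID4 took 3.53% in CDKO iMeLC, 3.44% in CTRL iMeLC, 5.74% in CDKO hESC and 7.17% in CTRL hESC. On average the iMeLC makeup thus held more ID2 and ID3 and less ID1 and ID4 in both genotypes. The ID3 share overlapped in CTRL, with 23.7% in CTRL1106 iMeLC and 25.1% in CTRL hESC 2. A share can rise while the level falls, as for ID3 in CTRL. No test was made of these shares.

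The homeobox targets MSX1 and MSX2 are transcription factors of early mesoderm and neural crest; MSX1 rose in iMeLC in both genotypes and MSX2 in CDKO. MSX1 had 4.76, 3.49 and 7.94 CPM in CDKO1102, CDKO1105 and CDKO1312 iMeLC, against 0.144, 0.341 and 0.205 CPM in CDKO hESC 1 to 3, where those values rest on 2, 7 and 4 counts. In CTRL it had 1.92, 0.719 and 3.804 CPM in CTRL1101, CTRL1106 and CTRL1109 iMeLC, against 0.714, 0.253 and 0.459 CPM in CTRL hESC 1 to 3, resting on 13, 5 and 10 counts. The groups did not overlap in either genotype, with CTRL1106 iMeLC just above CTRL hESC 1. The log2 fold change was 4.49 ± 0.67 in CDKO (edgeR adjusted p = 8.01e-05) and 2.18 ± 0.60 in CTRL (edgeR adjusted p = 0.00848). It stayed called under every alternative, and without CTRL1109 the CTRL value was 1.43 (adjusted p = 0.0430).

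MSX2 had 6.46, 4.23 and 9.45 CPM in CDKO1102, CDKO1105 and CDKO1312 iMeLC, against 2.31, 2.68 and 2.20 CPM in CDKO hESC 1 to 3, without overlap. Its rise in CDKO was 1.48 ± 0.46 (edgeR adjusted p = 0.0146), and was not called without CDKO1312 (1.08, adjusted p = 0.0790) or without CDKO hESC 3 (1.42, adjusted p = 0.0506). In CTRL1101, CTRL1106 and CTRL1109 iMeLC it had 5.03, 1.61 and 3.99 CPM, against 3.57, 1.31 and 1.38 CPM in CTRL hESC 1 to 3. These overlapped, since CTRL1106 lay below CTRL hESC 1, and the difference of 0.77 ± 0.46 was not called (edgeR adjusted p = 0.183). It was called without CTRL hESC 1 (1.42, adjusted p = 0.0303) or without CTRL1106 (1.08, adjusted p = 0.0445). An annotated pseudogene, MSX2P1, carries its name, so reads shared with that copy would leave its counts uncertain. Beside these rises, the neural crest markers summed to 7.03 to 10.5 CPM in CDKO iMeLC, 6.67 to 9.21 CPM in CTRL iMeLC, 34.5 to 45.2 CPM in CDKO hESC and 39.8 to 45.2 CPM in CTRL hESC, and 3 of their 5 genes reached 1 CPM in each group. Those sums were thus lower in iMeLC.

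Among the inhibitors, BAMBI rose in CDKO and SMAD6 was not called. BAMBI had 33.6, 29.002 and 32.7 CPM in CDKO1102, CDKO1105 and CDKO1312 iMeLC, against 20.2, 20.4 and 19.4 CPM in CDKO hESC 1 to 3. These groups were tight and well apart, and the log2 fold change was 0.67 ± 0.25 (edgeR adjusted p = 0.0367). The call was lost with RLE scaling (0.62, adjusted p = 0.0525) and without any 1 of the 6 CDKO libraries or CTRL1109, with adjusted p of up to 0.120. In CTRL1101, CTRL1106 and CTRL1109 iMeLC it had 31.7, 12.2 and 18.3 CPM, against 20.6, 16.9 and 16.0 CPM in CTRL hESC 1 to 3. The CTRL iMeLC libraries straddled the hESC ones, with CTRL1101 at the CDKO level, and the difference was 0.22 ± 0.25 (edgeR adjusted p = 0.497; -0.27 without CTRL1101). The summed fibroblast or feeder markers (7 genes) were also higher in CDKO iMeLC than in CDKO hESC, and in CTRL1101 than in the other CTRL iMeLC libraries. They summed to 955, 815 and 699 CPM in CDKO1102, CDKO1105 and CDKO1312 iMeLC, 936, 461 and 465 CPM in CTRL1101, CTRL1106 and CTRL1109 iMeLC, 509 to 675 CPM in CDKO hESC and 425 to 668 CPM in CTRL hESC (scaled within the stage). All 7 reached 1 CPM in CDKO iMeLC, 6 in CTRL iMeLC, 5 in CDKO hESC and 4 in CTRL hESC. DCN, which marks fibroblasts, had 3.19 to 8.21 CPM in CDKO iMeLC, 0.624 to 3.05 CPM in CTRL iMeLC and under 1 CPM in every hESC library. THY1, of the same list, went the other way between the stages and was the largest entry of the sum in every hESC library. It had 112 to 142 CPM in CDKO iMeLC and 105 to 156 CPM in CTRL iMeLC, against 321 to 443 CPM in CDKO hESC and 248 to 406 CPM in CTRL hESC. POSTN overlapped between the iMeLC genotypes (3.06 to 3.97 CPM in CDKO, 2.36 to 4.35 CPM in CTRL). In CTRL1101, COL1A1 (528 CPM), COL1A2 (244 CPM) and POSTN lay above every CDKO iMeLC library. The highest CDKO iMeLC values were 453 CPM of COL1A1 and 227 CPM of COL1A2. COL3A1 (41.2 CPM), LUM (0.469 CPM) and DCN in CTRL1101 lay below every CDKO iMeLC library. The lowest CDKO iMeLC values were 70.4 CPM of COL3A1 and 1.28 CPM of LUM. The part of these markers in the BAMBI values was not tested.

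SMAD6 had 20.9, 21.9 and 25.3 CPM in the CDKO iMeLC libraries, against 15.9, 18.0 and 28.9 CPM in CDKO hESC 1 to 3. In the CTRL iMeLC libraries it had 20.2, 14.9 and 26.6 CPM, against 23.1, 19.3 and 25.8 CPM in CTRL hESC 1 to 3. The groups overlapped in both genotypes. Its log2 fold change was 0.12 (95% interval -0.39 to 0.62, edgeR adjusted p = 0.683) in CDKO and -0.15 (-0.65 to 0.35, edgeR adjusted p = 0.625) in CTRL.

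SMAD9, the BMP transducer that is itself a BMP target, was low everywhere and fell in iMeLC. It had 1.002, 0.882 and 0.796 CPM in CDKO1102, CDKO1105 and CDKO1312 iMeLC, against 2.96, 2.09 and 1.38 CPM in CDKO hESC 1 to 3. In CTRL1101, CTRL1106 and CTRL1109 iMeLC it had 1.15, 2.27 and 1.40 CPM, against 3.19, 2.88 and 3.58 CPM in CTRL hESC 1 to 3. Neither pair of groups overlapped. The log2 fold change was -1.25 ± 0.33 in CDKO (edgeR adjusted p = 0.00579) and -1.001 ± 0.32 in CTRL (edgeR adjusted p = 0.0188). The CTRL call was lost without CTRL hESC 1 (-0.98, adjusted p = 0.0509) or without CTRL hESC 3 (-0.88, adjusted p = 0.0763).

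The ligand BMP4 was not called between the stages. It had 31.8, 35.4 and 34.1 CPM in CDKO1102, CDKO1105 and CDKO1312 iMeLC, against 33.8, 34.5 and 33.2 CPM in CDKO hESC 1 to 3, the log2 fold change being -0.0031 (95% interval -0.42 to 0.41, edgeR adjusted p = 0.990). In CTRL1101, CTRL1106 and CTRL1109 iMeLC it had 28.4, 20.2 and 14.8 CPM, against 33.5, 23.5 and 29.9 CPM in CTRL hESC 1 to 3. CTRL1101 fell inside the hESC range and the other iMeLC libraries below it. The CTRL difference was -0.45 ± 0.19 (edgeR adjusted p = 0.0655). It was called with RLE scaling (-0.54, adjusted p = 0.0318), with DESeq2 (-0.54, adjusted p = 0.0165), without CTRL hESC 2 (-0.57, adjusted p = 0.0356) and without CTRL1101 (-0.77, adjusted p = 0.00130).

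**Figure D2:**
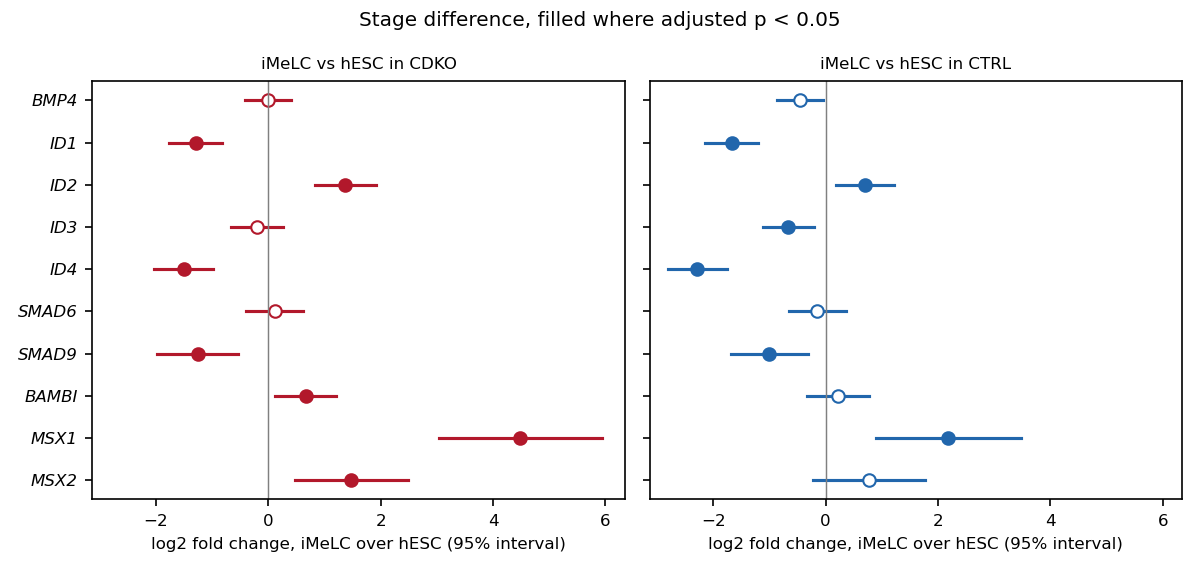
Log2 fold change of each of the 10 genes in iMeLC over hESC (horizontal axis), in CDKO (left) and CTRL (right); bars are 95% intervals of the fit over 12 libraries and filled points have an adjusted p under 0.05. ID1, ID4 and SMAD9 lie left of 0 and ID2 and MSX1 right of it, filled in both panels, while BMP4 and SMAD6 are open in both.

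No member was called between the genotypes at either stage. In iMeLC, 0 of the 10 members passed with CDKO over CTRL, where 69 of 19999 genes (0.345%) were called. 2 members had an unadjusted p under 0.05, beside 3952 of all genes, and 1 member was called by DESeq2, which called 8.32% of all genes with an adjusted p. The members' median log2 fold change was 0.19, beside -0.028 for all genes. Of the members, 7 were above 0 and 3 below, where 9389 of all 19999 genes were above 0. BMP4 was higher and SMAD9 lower in CDKO iMeLC without overlap, where 26.1% of all genes tested did not overlap. In hESC, 0 of the 9 members tested passed, where 226 of 17222 genes (1.31%) were called. 2 members had an unadjusted p under 0.05, beside 2777 of all genes, and 2 members were called by DESeq2, which called 3.89% of all genes with an adjusted p. The hESC median of the members was -0.17, beside -0.0018 for all genes. In hESC 3 members were above 0 and 6 below, where 8555 of all 17222 genes were above 0. None of the 9 was without overlap, where 22.1% of all genes were. With 3 libraries a side, the exact permutation test of 1 gene cannot go below 0.1.

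In iMeLC, BMP4 had 28.1, 30.8 and 30.1 CPM in CDKO1102, CDKO1105 and CDKO1312, against 25.3, 18.1 and 13.5 CPM in CTRL1101, CTRL1106 and CTRL1109 (scaled within the stage, as are all CPM in the genotype comparisons). The CDKO libraries lay within a few CPM of each other and all above CTRL1101, the highest control. edgeR's log2 fold change was 0.65 (95% interval 0.16 to 1.13), with an edgeR adjusted p of 0.171, an unadjusted p of 0.0155 and an exact two-sided permutation p of 0.1. It was called by DESeq2 (adjusted p = 0.0464) and without CTRL1101 (0.92, adjusted p = 0.0151). The BMP4 gene spans chr14:53949736-53958761 on the minus strand.

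SMAD9 had 0.888, 0.767 and 0.702 CPM in CDKO1102, CDKO1105 and CDKO1312 iMeLC, against 1.02, 2.04 and 1.27 CPM in CTRL1101, CTRL1106 and CTRL1109. The highest CDKO library was below the lowest CTRL library. The log2 fold change was -0.88 (95% interval -1.68 to -0.07, edgeR adjusted p = 0.227, exact permutation p = 0.1). SMAD9 stayed uncalled under every alternative, with adjusted p of 0.0787 or more.

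CTRL1106 was the lowest iMeLC library for 7 of the 10 members, namely BAMBI, MSX1, MSX2, ID1, ID3, ID4 and SMAD6. BAMBI had 29.8, 25.2 and 28.9 CPM in CDKO1102, CDKO1105 and CDKO1312, against 28.2, 10.97 and 16.6 CPM in CTRL1101, CTRL1106 and CTRL1109. MSX1 had 4.22, 3.03 and 7.004 CPM in the same CDKO libraries, against 1.71, 0.645 and 3.45 CPM in the CTRL libraries. MSX2 had 5.72, 3.68 and 8.33 CPM in the CDKO libraries, against 4.48, 1.45 and 3.62 CPM in the CTRL libraries. Each overlapped between the genotypes through 1 CTRL library. The log2 fold changes were 0.59 for BAMBI (95% interval -0.11 to 1.29, edgeR adjusted p = 0.318), 1.29 for MSX1 (-0.04 to 2.63, edgeR adjusted p = 0.263) and 0.89 for MSX2 (-0.14 to 1.93, edgeR adjusted p = 0.310). BAMBI was called without CTRL1101 (1.03, adjusted p = 0.0215). CDKO1312, the highest library for MSX1 and MSX2, also had the highest primitive streak and endoderm sums of its stage (1906 and 318 CPM), and CTRL1106 the lowest of both (322 and 20.1 CPM). In CDKO1312, CER1 alone gave 1088 of the 1906 CPM. TBXT, EOMES and MIXL1, of the same primitive streak list, had 26.5, 111 and 129 CPM there, each lower than in CDKO1102 and CDKO1105. The fibroblast or feeder sums were 699 to 955 CPM in CDKO iMeLC and, as for BAMBI, higher in CTRL1101 (936 CPM) than in CTRL1106 (461 CPM) and CTRL1109 (465 CPM). COL1A1 and COL1A2 gave most of the CTRL1101 sum, and COL3A1, LUM and DCN there were below every CDKO iMeLC library. The part of these cell types in the values was not tested.

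The ID genes and SMAD6 were not called between the genotypes in iMeLC. ID1 had 40.3, 55.5 and 47.8 CPM in the CDKO libraries against 56.9, 39.8 and 53.6 CPM in the CTRL libraries, with a log2 fold change of -0.07 (95% interval -0.45 to 0.32). ID2 had 22.5 to 25.5 CPM in CDKO against 24.6 to 34.9 CPM in CTRL (-0.22, interval -0.57 to 0.12). ID3 ran from 48.7 to 52.9 CPM in CDKO against 25.4 to 56.8 CPM in CTRL (0.26, interval -0.33 to 0.84), and ID4 from 5.79 to 7.18 CPM in CDKO against 4.81 to 8.35 CPM in CTRL (0.04, interval -0.49 to 0.58). SMAD6 had 18.6 to 22.3 CPM in CDKO against 13.3 to 24.1 CPM in CTRL (0.11, interval -0.37 to 0.60). All 5 overlapped between the genotypes, the CTRL range being the wider in each, and edgeR's adjusted p ran from 0.430 for ID2 to 0.933 for ID4. The intervals leave room for changes of either sign.

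In hESC all 4 ID genes had negative fold changes in CDKO. ID2 had 13.7, 12.4 and 10.4 CPM in CDKO hESC 1, 2 and 3, against 24.7, 12.6 and 29.03 CPM in CTRL hESC 1, 2 and 3. ID4 had 27.9, 26.2 and 18.7 CPM in CDKO, against 41.7, 27.4 and 49.1 CPM in CTRL. ID1 had 153, 152 and 147 CPM in CDKO, against 200, 129 and 268 CPM in CTRL. In each of the 3 genes CTRL hESC 2 lay among or below the CDKO libraries and the other CTRL libraries above them. For ID1 the coefficient of variation was 2.07% in CDKO hESC and 34.9% in CTRL hESC.

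The log2 fold change in hESC was -0.87 for ID2 (95% interval -1.46 to -0.28, edgeR adjusted p = 0.153) and -0.70 for ID4 (-1.18 to -0.23, edgeR adjusted p = 0.148), with an exact permutation p of 0.2 for each. It was -0.40 for ID1 (-0.86 to 0.05, edgeR adjusted p = 0.365) and -0.17 for ID3 (-0.39 to 0.05, edgeR adjusted p = 0.432). Without CTRL hESC 2 all but ID3 were called: ID1 at -0.64 (adjusted p = 0.0236), ID2 at -1.15 (adjusted p = 0.00562) and ID4 at -0.91 (adjusted p = 0.0206), where 2.78% of all genes were. The same genes were called without the filter on low counts (adjusted p from 1.56e-05 to 0.00466), where 3.62% of all genes were, and ID2 (adjusted p = 0.0145) and ID4 (adjusted p = 0.0151) by DESeq2. ID3 itself had 81.5, 73.2 and 69.1 CPM in CDKO against 86.4, 73.6 and 91.4 CPM in CTRL, again with CTRL hESC 2 inside the CDKO range.

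The other members tested in hESC were not called. BMP4 had 37.4 to 39.1 CPM in CDKO against 26.4 to 37.5 CPM in CTRL, a log2 fold change of 0.23 (95% interval -0.04 to 0.51). BAMBI had 21.9 to 23.1 CPM in CDKO against 18.1 to 23.1 CPM in CTRL (0.18, interval -0.09 to 0.44). SMAD6 had 18.0 to 32.7 CPM in CDKO, the highest value in CDKO hESC 3, against 21.6 to 29.2 CPM in CTRL (-0.11, interval -0.57 to 0.36). SMAD9 had 1.56 to 3.35 CPM in CDKO, the lowest value in CDKO hESC 3, against 3.23 to 4.04 CPM in CTRL (-0.60, interval -1.24 to 0.04). MSX2 had 2.49 to 3.03 CPM in CDKO against 1.47 to 3.999 CPM in CTRL (0.23, interval -0.63 to 1.08). edgeR's adjusted p for these 5 ran from 0.339 to 0.839. MSX1, with 2 to 7 counts in CDKO and 5 to 13 in CTRL, did not pass the filter on low counts within hESC and was not tested there. Without that filter its log2 fold change was -0.99 (edgeR adjusted p = 0.616) and in the fit over 12 libraries -0.98 (edgeR adjusted p = 0.719), with an exact permutation p of 0.2.

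**Figure D3:**
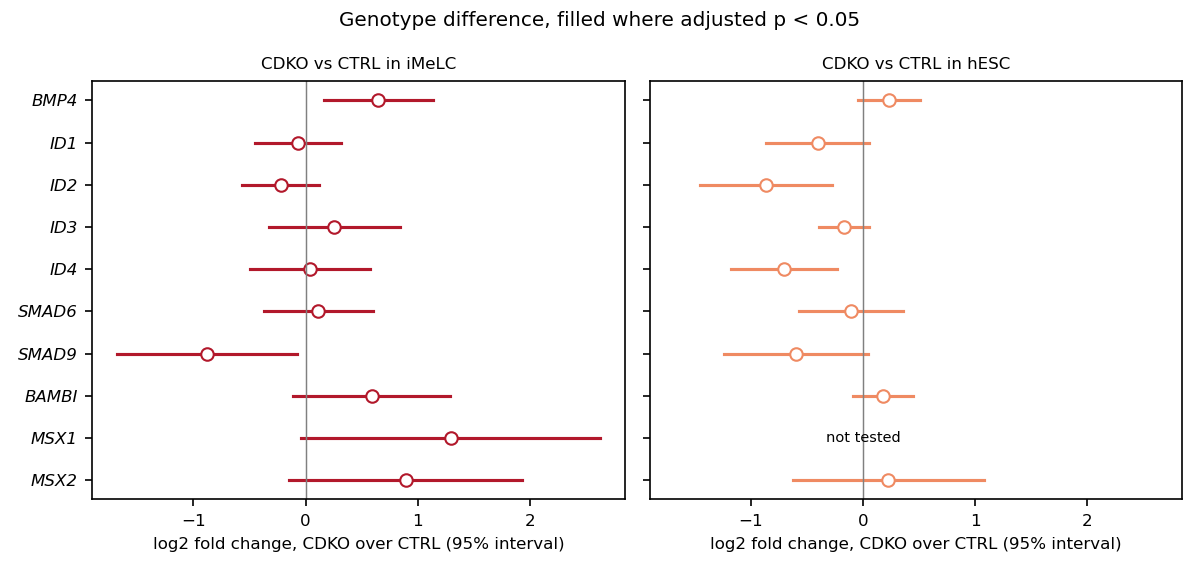
Log2 fold change of each gene in CDKO over CTRL (horizontal axis) in iMeLC (left) and hESC (right), with 95% intervals of the fits on each stage's 6 libraries; filled points would have an adjusted p under 0.05. All points are open, the intervals of BMP4 and SMAD9 in iMeLC and of ID2 and ID4 in hESC lie clear of 0, and MSX1 was not tested in hESC.

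Whether the genotype difference itself changed between the stages was tested as an interaction over the 12 libraries. None of the 10 members was called, where 4 of 20262 genes (0.0197%) were, and 2 had an unadjusted p under 0.05, beside 2275 of all genes. DESeq2 called no member either, where it called 1.46% of all genes with an adjusted p. The interaction was 0.78 for ID4 (95% interval 0.06 to 1.51, unadjusted p = 0.0367, edgeR adjusted p = 0.415) and 2.30 for MSX1 (0.31 to 4.30, unadjusted p = 0.0269, edgeR adjusted p = 0.389). A positive value means that CDKO over CTRL was higher in iMeLC than in hESC. The value was above 0 for 9 of the 10 members, with SMAD9 at -0.25, and the median was 0.46, beside -0.015 for all genes, of which 9787 were above 0. The members share libraries and are not independent of each other.

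Library by library, the members fell into loose sets. After each gene's stage mean was taken away on the log2(CPM + 0.5) scale, 38 of the 45 pairs of members correlated above 0 over the 12 libraries, with a median Pearson r of 0.34. The points of such a correlation share their library, its depth and, within a stage, its table, and the values are descriptions. Genotype was not taken away, so a difference between CDKO and CTRL enters each r. No share of pairs above 0 was taken over all genes. The closest pair was ID2 and ID4 (r = 0.93), followed by BAMBI and MSX2 (r = 0.86) and ID1 and ID2 (r = 0.84). The lowest was SMAD9 and BAMBI (r = -0.70). In hESC the ID pattern showed in CTRL hESC 1 and 3, where ID2 stood 0.62 and 0.84 above its stage mean and ID4 0.46 and 0.68 above. CTRL1106 iMeLC stood 1.57 below the stage mean for MSX1, 1.27 below for MSX2, 0.99 below for BAMBI and 0.82 below for ID3, but 0.71 above for SMAD9.

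**Figure D4:**
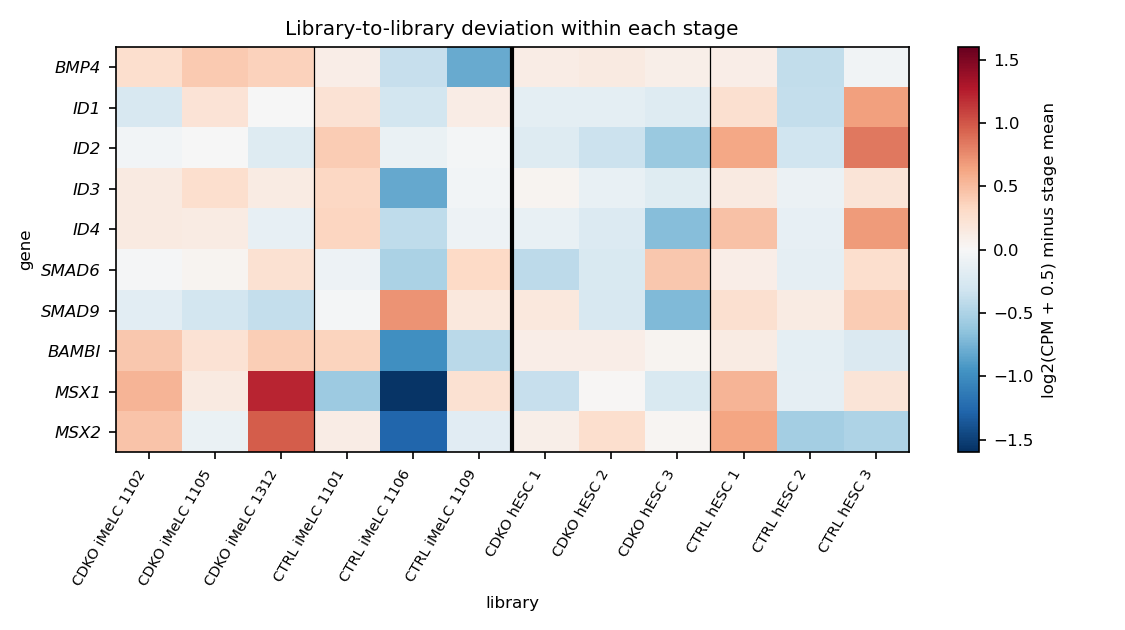
Deviation of each gene (rows) in each library (columns) from its stage mean on the log2(CPM + 0.5) scale, red above and blue below; thin lines part CDKO from CTRL and the thick line parts iMeLC from hESC. CTRL1106 iMeLC is the darkest blue column for BAMBI, MSX1 and MSX2, and ID1, ID2 and ID4 are red in CTRL hESC 1 and 3.

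Over the 15098 genes of at least 1 CPM, the genes most like each member were named by the same centred correlation over 12 libraries. ID2 and ID4 were in each other's top 3, and MRRF, a mitochondrial ribosome recycling factor, was in the top 3 of ID1 (r = 0.93), ID2 (r = 0.93) and ID4 (r = 0.91). BAMBI was most like FILIP1L (r = 0.98), HIVEP3 (r = 0.97) and ACTA1 (r = 0.97). MSX1 was most like FRS2 (r = 0.92), FAM177A1 (r = 0.91) and NOG (r = 0.91), the last a secreted BMP antagonist. The top gene was MLXIP for ID3 (r = 0.95), PREX1 for SMAD6 (r = 0.96), TTF2 for SMAD9 (r = 0.94) and HAUS3 for MSX2 (r = 0.95). Each value is among the 3 highest of that many genes over 12 libraries.

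Of 49 other BMP pathway genes, 48 were tested between the stages, and about as large a share was called as among all genes. In CDKO 60.4% of the 48 were called, where 59.8% of all genes were, and in CTRL 54.2%, where 49.4% of all genes were. By direction, 23 (47.9%) were called higher and 6 lower in CDKO, where 32.1% of all genes were called higher and 27.7% lower. In CTRL 20 (41.7%) were called higher and 6 lower, where 29.5% of all genes were called higher and 19.9% lower. The median log2 fold change of the 48 was 0.57 in CDKO and 0.24 in CTRL. The medians of all genes were -0.079 in CDKO and -0.014 in CTRL.

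Among the 12 secreted antagonists, which bind BMP ligands outside the cell, 7 (58.3%) were called higher in CDKO and 5 (41.7%) in CTRL, and none lower, so the share called either way was no larger than that of all genes (59.8% and 49.4%). NOG (noggin) averaged 23.2 ± 13.6 CPM in CDKO iMeLC against 0.738 ± 0.353 CPM in CDKO hESC (log2 fold change 4.97, edgeR adjusted p = 2.5e-05), and 5.61 ± 3.71 CPM in CTRL iMeLC against 0.806 ± 0.370 CPM in CTRL hESC (2.79, edgeR adjusted p = 0.00211). FST (follistatin) averaged 246 ± 15.5 CPM in CDKO iMeLC against 30.2 ± 13.5 CPM in CDKO hESC (3.02), and 199 ± 90.9 CPM in CTRL iMeLC against 26.8 ± 6.14 CPM in CTRL hESC (2.89). NBL1 rose by 1.69 in CDKO and 1.07 in CTRL on the log2 scale. CER1 is in both this list and the primitive streak list, whose sum was higher in every iMeLC library than in the hESC libraries of the same genotype.

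Of the 8 receptors and co-receptors, 6 (75.0%) were called higher and 1 (12.5%) lower in each genotype. Among all genes tested, 32.1% were called higher and 27.7% lower in CDKO, and 29.5% higher and 19.9% lower in CTRL. The type I receptor BMPR1A rose by 0.75 in both CDKO and CTRL, ACVR1 by 1.32 in CDKO and the co-receptor RGMB by 0.93 in CTRL. The type II receptor ACVR2B fell by 0.94 in CDKO and by 0.88 in CTRL. Of the 3 other transducers, SMAD4 fell by 0.62 in CDKO and by 0.81 in CTRL. SMAD1 rose by 0.98 in CDKO and 0.49 in CTRL, and SMAD5 by 0.43 in CDKO. Among 5 other intracellular inhibitors, 3 were called higher and 1 lower in each genotype: the ubiquitin ligases SMURF2 (1.36 in CDKO and 1.02 in CTRL) and SMURF1 (0.71 and 0.43) rose, and SKIL, which represses SMAD complexes, fell by 0.74 in CDKO and by 0.73 in CTRL.

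Of 8 other ligands tested, 1 was called higher and 3 lower in CDKO, and 1 higher and 1 lower in CTRL. BMP6 averaged 0.900 ± 0.286 CPM in CDKO iMeLC against 3.26 ± 1.10 CPM in CDKO hESC (-1.84), and 1.78 ± 0.476 CPM in CTRL iMeLC against 3.7998 ± 0.517 CPM in CTRL hESC (-1.09). BMP5 rose to 1.1235 ± 0.317 CPM in CDKO iMeLC, against 0.0828 ± 0.0749 CPM in CDKO hESC. BMP7 fell by 0.74 in CDKO. All 3 E proteins, the partners that ID proteins hold back, were called higher in both genotypes. Among all genes, 32.1% were called higher in CDKO and 29.5% in CTRL, and no test was made of a share of 3 genes. TCF12 rose by 1.23 in CDKO and 0.76 in CTRL, TCF3 by 0.81 in CDKO and 0.76 in CTRL, and TCF4 by 0.57 in CDKO and 0.35 in CTRL.

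The 9 other BMP targets were mostly uncalled: 1 was higher in CDKO (TFAP2A, 2.42, edgeR adjusted p = 0.0169), and in CTRL 1 was higher (TBX3, 1.001) and 2 lower (DLX5 at -2.14 and HAND1 at -3.25). The share called either way was 11.1% in CDKO and 33.3% in CTRL, where 59.8% and 49.4% of all genes were. HAND1 averaged 0.195 ± 0.111 CPM in CTRL iMeLC against 1.90 ± 2.98 CPM in CTRL hESC, with 5.97 CPM in CTRL hESC 1 (scaled within the stage). HAND1, TFAP2A and GATA3 are also in the amnion and trophectoderm list, whose 8 genes summed to 8.48 to 14.4 CPM in CDKO iMeLC, 6.91 to 14.6 CPM in CTRL iMeLC, 12.3 to 16.8 CPM in CDKO hESC and 8.15 to 35.5 CPM in CTRL hESC.

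**Figure D5:**
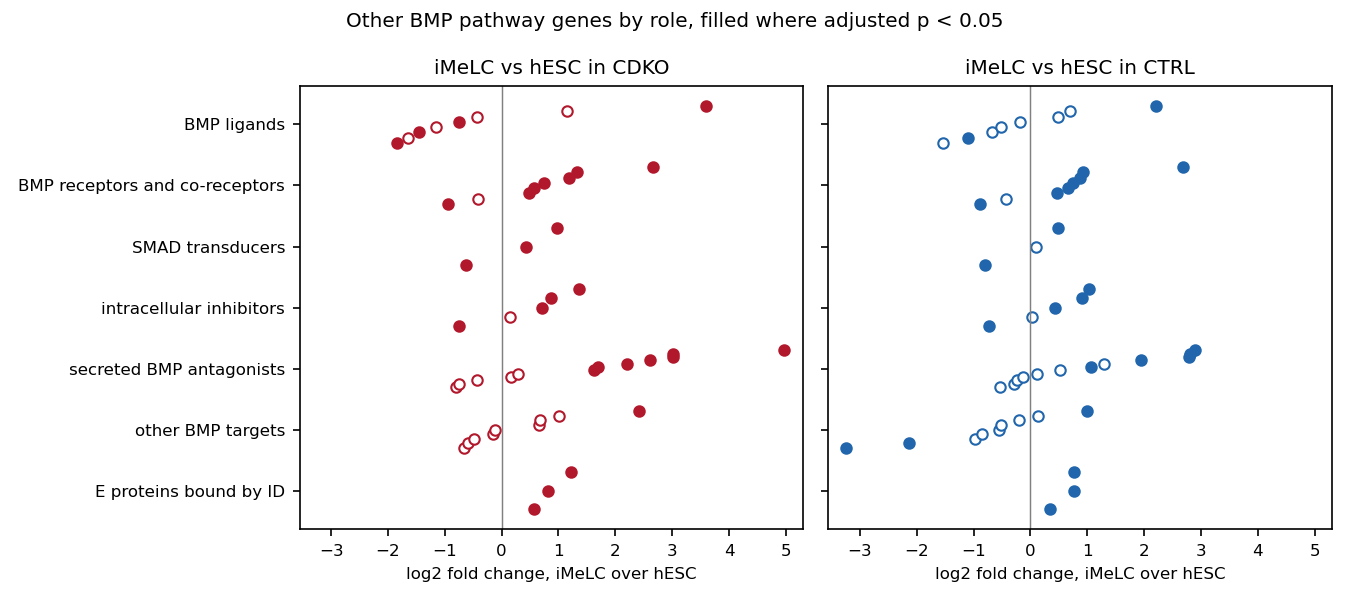
Log2 fold change in iMeLC over hESC (horizontal axis) of the 48 other BMP pathway genes tested, by role (rows), in CDKO (left) and CTRL (right); each point is a gene and filled points have an adjusted p under 0.05. The called secreted antagonists and E proteins all lie right of 0, NOG reaching 4.97 in CDKO.

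Between the genotypes the wider pathway gave few calls. In iMeLC 0 of 49 were called, where 0.345% of all genes were. Of the 49, 38 were above 0, where 9389 of all 19999 genes tested were. Their median log2 fold change was 0.33, beside -0.028 for all genes. The lowest p among the ligands was that of BMP2, which averaged 53.7 ± 12.2 CPM in CDKO iMeLC against 15.8 ± 9.74 CPM in CTRL iMeLC (1.77, edgeR adjusted p = 0.127), and among the antagonists that of NBL1 (1.119, edgeR adjusted p = 0.127). DESeq2 called 4 of the 49, where it called 8.32% of all genes, and 8 were called without CTRL1101, where 12.8% of all genes were. Several marker sums did not overlap between the genotypes in iMeLC. The pluripotency sums were among them, at 5068 to 5558 CPM in CDKO iMeLC against 4470 to 5015 CPM in CTRL iMeLC. So were the low neural sums, at 6.83 to 8.39 CPM in CDKO iMeLC against 4.95 to 6.56 CPM in CTRL iMeLC. The primitive streak sums, which include CER1, were 1538.5 to 1906 CPM in CDKO iMeLC against 322 to 1275 CPM in CTRL iMeLC. CER1 alone had 491 to 1088 CPM in CDKO iMeLC and at most 319 CPM in CTRL iMeLC. TBXT, EOMES and MIXL1, of the same list, overlapped between the genotypes. CTRL1109 had 101 CPM of TBXT and 220 CPM of MIXL1, above every CDKO library (at most 66.04 and 218 CPM). Its EOMES (134 CPM) lay inside the CDKO range of 111 to 146 CPM. CTRL1106 was below every CDKO library for each, and CTRL1101 for EOMES and MIXL1. The endoderm sums were 145 to 318 CPM in CDKO iMeLC against 20.1 to 126 CPM in CTRL iMeLC. The primordial germ cell sums were 109 to 168 CPM in CDKO iMeLC against 76.7 to 92.1 CPM in CTRL iMeLC, with 4 of 6 genes reaching 1 CPM in both and NANOS3 and DPPA3 below it. SOX17 and PRDM1 are in both the endoderm and the germ cell list. The part of these cell types in the pathway values was not tested. In hESC 2 of 43 (4.65%) were called, both higher in CDKO, where 1.31% of all genes were called. The ligand GDF7 had 4.82, 4.35 and 3.88 CPM in CDKO hESC 1 to 3, against 0.492, 1.81 and 0.933 CPM in CTRL hESC 1 to 3 (1.99, edgeR adjusted p = 0.0383). RGMB had 77.2, 84.4 and 91.1 CPM in CDKO, against 60.3, 57.6 and 60.9 CPM in CTRL (0.50, edgeR adjusted p = 0.0241). Neither was called without CTRL hESC 1 or without any 1 CDKO library, and GDF7 also lost its call without CTRL hESC 3 (1.89, adjusted p = 0.0643), with adjusted p of up to 0.170 over these omissions. In a fit over the 12 libraries GDF7 was not called (adjusted p = 0.227). Exons of GDF7 overlap those of AC012065.4, and exons of RGMB those of RGMB-AS1 and AC008522.1, all on the opposite strand. As for ID2, reads of these overlapping genes cannot be told apart. None of the 48 genes tested was called in the interaction, by edgeR or DESeq2, and 2 were without CTRL1101, where 2.33% of all genes were.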

How the data were processed

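Total RNA was isolated by RNeasy micro kit from sorted cells or from pellets, and sequenced after SMARTer Stranded Total RNA preparation, per the labels' protocols. The authors deposited raw counts of reads for each gene symbol, as whole numbers, in a hESC table and an iMeLC table. The submitters' processing notes name FastQC, cutadapt, edgeR and GRCh38. Which aligner, counter and annotation were used, and whether strand was counted, is not stated in the labels or headers.

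Counts were tested with edgeR 4.0.16 (R 4.3.3) by the two-sided quasi-likelihood test after filterByExpr and TMM scaling, with Benjamini-Hochberg adjustment over all genes tested and a threshold of 0.05. Genotype comparisons were fitted on the 6 libraries of a stage; stage comparisons and the interaction on all 12 with 4 group means. CPM use TMM-scaled totals of the same fit. Standard errors and 95% intervals come from the quasi-likelihood test. Single genes were also compared by an exact permutation test over 20 arrangements of log2(CPM + 0.5). The scripts were tested on simulated data. Alternatives were RLE scaling, DESeq2 1.42.0, no filter, another set of libraries in the fit and each library left out.

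Of 36762 symbols, 34217 (93.1%) matched 1 gene of GENCODE release 29, which gave coordinates and exon lengths. Replicate libraries differed by 4.41 to 198 chi-square per gene, above sampling noise. The labels name separate lines and not the cultures, so p-values measure the spread between these libraries. Fits over both stages treat the same lines as independent.

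The members, the lists, the tests and the rule for naming genes were chosen with earlier results of these data known. One result is not reported here. The rule named every member, up to 3 called genes (or the gene of lowest p) per role of the wider pathway, the 3 genes most like each member, and TET1. HAND1 in 1 library and the alternatives for the wider pathway were added after their values were seen. CPM of single marker genes also lie outside the rule, which gave the marker lists as counts and sums. These genes are CER1, TBXT, EOMES, MIXL1, COL1A1, COL1A2, COL3A1, LUM, DCN, POSTN and THY1.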

Additional observations from a re-analysis of the deposited data

How the results depend on the processing

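No paired analysis was possible because the hESC columns carry no line number, so no library of one stage could be matched to its line in the other, and within a stage the genotypes share no number. Of 660 fold changes of members under alternatives, 603 kept their direction and side of the threshold, 18 became called, 19 lost a call and 20 changed sign; every sign change was of a value that was not called.

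Counts between the genotypes depended on the method. In hESC 618 genes were called by DESeq2, 1228 without the filter and 72 in the fit over 12 libraries, in place of 226, and leaving out 1 library gave 5 to 493. Members called in hESC were 2 by DESeq2 and 3 without the filter, and 0 to 3 with 1 library left out. In iMeLC 1566 genes were called by DESeq2, 428 without the filter and 1310 over 12 libraries, in place of 69, and 15 to 2646 with 1 library left out, the most without CTRL1101. Members called in iMeLC were 1 by DESeq2 and 0 to 2 with 1 library left out. In the interaction 210 genes were called by DESeq2 and 29 without the filter, in place of 4, and 1 to 439 with 1 library left out, the most without CTRL1101, with no member called in any. In the stage comparisons gene counts stayed within 1.5 times, and 5 to 7 members in CDKO and 4 to 7 in CTRL were called with 1 library left out. The causes were not tested.

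The share of higher genes among those called in iMeLC was 23.2%, against 45.5% by DESeq2, 43.2% without the filter and 46.3% over 12 libraries; in hESC it was 45.6%, against 31.9% over 12 libraries. RLE scaling put the median of all genes at -0.129 in CDKO and -0.104 in CTRL between the stages.

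BMP4 between the stages in CDKO was 0.048 without the filter. With 1 library left out, signs changed in these ranges: in the hESC genotype comparison MSX2 (-0.018 to 0.83) and SMAD6 (-0.41 to 0.044); in iMeLC ID1 (-0.21 to 0.047), ID3 (-0.0049 to 0.54), ID4 (-0.13 to 0.28) and SMAD6 (-0.074 to 0.36); between the stages in CDKO BMP4 (-0.11 to 0.032) and SMAD6 (-0.039 to 0.42) and in CTRL BAMBI (-0.27 to 0.44); and in the interaction SMAD9 (-0.52 to 0.061). Of the other pathway genes, 29 in CDKO and 26 in CTRL were called between the stages; with 1 library left out it was 25 to 33 in CDKO and 19 to 26 in CTRL, and in fits over 6 libraries 35 (24 higher, 11 lower) in CDKO and 20 in CTRL. Without CTRL1101 the 26 in CTRL were 16 higher and 10 lower. hESC depth limited MSX1, which rests on few counts there.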
